A study of Mus musculus with 16 samples.

Results

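The transcript changes that followed partial resection of a liver without HIRA in its hepatocytes were measured over 20922 genes, out of 55421 gene IDs in the count table. The genes were chosen by a sum of 10 or more counts over the 8 HIRA KO libraries. HIRA loads the replacement histone H3.3 onto DNA independently of replication. Poly-A RNA from livers of male C57BL/6 mice was sequenced in 16 libraries. HIRA KO and control livers gave 4 libraries each from before and 4 each from after resection. In HIRA KO, adeno-associated virus serotype 8 with the hepatocyte promoter Tbg carried either Cre recombinase into HIRAfl/fl mice or saCas9 with a guide RNA against HIRA into wildtype mice, and each group holds 2 libraries of each of these 2 approaches. Control mice were wildtype and received the same Tbg-driven Cre virus, or saCas9 with a guide against Rosa26. A Tbg-driven virus and its injection were thus common to all groups, and the resection to both genotypes. The wildtype Cre controls lacked the HIRAfl/fl alleles of the HIRA KO mice given Cre. The virus was given at 6 months of age and the resection was done 4 weeks later. The tissue before is the resected piece of liver (day 0) and the tissue after is the liver that remained, taken 5 days later. Per the study's methods an operated mouse gave both tissues, while the main test below treats before and after as independent groups. The lobe, how the tissue was collected and the time all differ between before and after and cannot be told apart. Tbg restricts the deletion to hepatocytes, so the other cells of the liver still carried an intact Hira gene.

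After a partial resection the remaining liver grows back by enlargement and division of the cells it still has. Immediate early genes and growth factors act first, hepatocytes then pass through G1 into DNA synthesis and mitosis, and the other cell types divide later, while the metabolic program of the hepatocyte is for a time turned down. The data ask which of these steps were visible at day 5 in a liver whose hepatocytes lacked HIRA.

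Libraries are named by their group and by the running number in the column names, before 1 to before 4 and after 1 to after 4. These numbers are in no label and the columns do not give the deletion approach, so which libraries belong to Cre and which to CRISPR is not known. The libraries before had 15103059 to 18924871 counts and those after 17604273 to 21738619. The share of counts from mitochondrial genes was 5.80% to 6.97% before and 4.14% to 6.01% after, and that of albumin 9.31% to 13.5% and 10.6% to 12.7%. Levels below are counts per 1000000 of the scaled library size (CPM). The 8 hepatocyte markers together had 160991, 144187, 120632 and 136553 CPM before and 130736, 143099.6, 115260.1 and 125362 CPM after resection, and none of the 8 was at 0. The libraries numbered 1 and 2 stood apart from those numbered 3 and 4 both before and after resection. On the first principal component of the 8 HIRA KO libraries (43.7% of the variance) before 1 and 2 lay at -9.83 and 5.18 and before 3 and 4 at 45.3 and 45.4, while after 1 and 2 lay at -52.0 and -36.6 and after 3 and 4 at -4.62 and 7.14. The change is therefore given below for all 8 libraries and for each of these 2 sets of 4.

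Hira itself (ENSMUSG00000022702.16, chromosome 16, 18877037 to 18970309, plus strand, GRCm38) checked the labels. It had 3.36, 3.12, 3.26 and 4.398 CPM before and 3.204, 3.31, 3.07 and 4.52 CPM after resection in HIRA KO, against 5.68, 6.12, 6.17 and 5.07 CPM before and 5.44, 4.93, 5.97 and 6.396 CPM after in control. The highest HIRA KO library was thus under the lowest control library, and between the times in HIRA KO the gene was not called (log2 fold change -0.01 ± 0.17, adjusted p 0.983). In bulk tissue a lower level can come from fewer cells of a type or from less RNA per cell, and these cannot be told apart here.

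Between the tissues before and after resection 2899 of the 20922 genes (13.9%) differed. The threshold was a Benjamini-Hochberg adjusted p under 0.05 in edgeR's quasi-likelihood fit. Of these, 1597 were higher after resection (7.63% of all genes) and 1302 lower (6.22%). With an absolute log2 fold change over 1 there were 1260 genes (6.02%), 960 higher and 300 lower. These shares are the background for the counts of calls in the lists below, and several lists were near or under them. The median log2 fold change of all genes was 0.02, the background against which each median below is set. Fold changes in control are printed beside some of those in HIRA KO. The same fit called 0 genes for a difference from control (smallest adjusted p 0.137), so these pairs are not called differences. Scaling by total counts in place of TMM moved the median of all genes in HIRA KO to 0.13, a shift of 0.11, and the split to 2113 higher and 736 lower genes. Libraries before and after were fully separated for 17.3% of all genes and for 2381 of the 2899 called ones. The test called 1608 genes (802 higher, 806 lower) in the libraries numbered 1 and 2 and 3029 (1587 higher, 1442 lower) in those numbered 3 and 4. The 791 genes called in both sets, 784 of them in the same direction, were 49.2% of the first and 26.1% of the second list. Lists gained or lost calls when 1 library was left out, in some of them most of the calls. Higher calls among G1 genes went from 6 to 2 without before 3. Those among cytoplasmic ribosomal proteins went from 10 to 2 without before 2. Without before 4 the test called 1744 genes and without before 3 it called 1841. Same-numbered libraries before and after resection deviated together, and with the number as a block 4166 genes were called (2081 higher, 2085 lower), 2749 of them among the 2899.

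**Figure D1:**
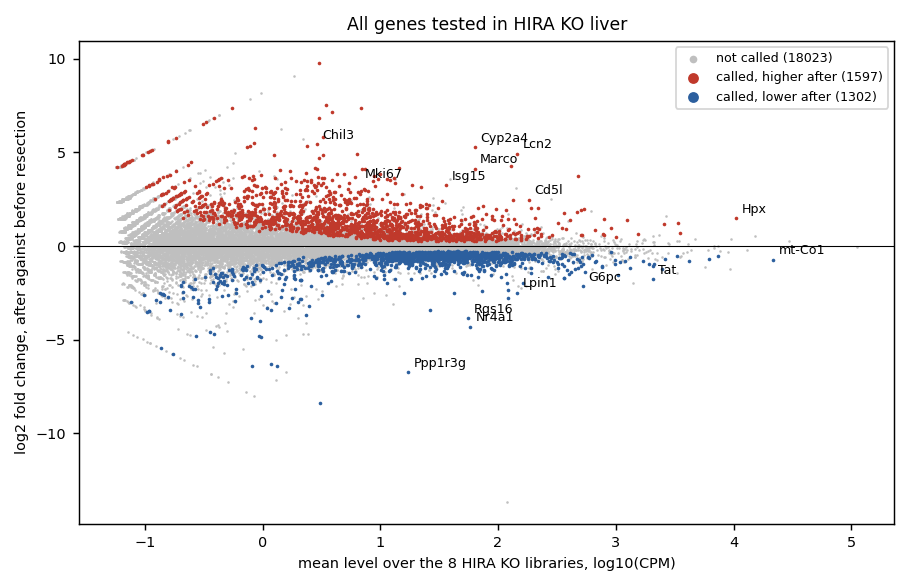
Each point is a gene of the HIRA KO comparison, with its mean level over the 8 libraries on the horizontal axis (log10 of CPM) and its log2 fold change after against before resection on the vertical axis; red and blue points are the 1597 higher and 1302 lower genes called at an adjusted p under 0.05 and grey points were not called. Called genes of large fold were mostly higher, while the lower ones included abundant transcripts such as Tat and mt-Co1.

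The genes that drive the cell cycle gave the largest rise among the 49 gene lists examined. All of the 35 measured genes of mitosis and cytokinesis had a positive log2 fold change, and 33 of them were called higher and 0 lower. The median of the list was 3.20, with 1.22 in the libraries numbered 1 and 2 and 4.89 in those numbered 3 and 4, and 4.84 in control. Summed over the list, the level was 95.1, 80.6, 44.5 and 43.04 CPM before and 226, 155, 1127 and 301 CPM after resection. The control libraries had 36.9 to 62.5 CPM before and 150.5 to 1163 CPM after resection. Within HIRA KO, after 3 stood far above the other 3 libraries taken at the same day, and before 1 and before 2 had higher sums than before 3 and before 4. When 1 HIRA KO library was left out, the count of higher genes was 10 without before 3 or before 4, 11 without after 3 and 19 without before 2. The count was 20 with the number as a block, 1 in the libraries numbered 1 and 2 and 23 in those numbered 3 and 4.

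Before mitosis comes the passage through G1. Of 24 cyclins, kinases and inhibitors of this phase, 6 rose and 0 fell, with a median of 0.57 (0.53 in the libraries numbered 1 and 2 and 0.45 in those numbered 3 and 4). The count of higher members was 2 without before 3 or before 4 and 3 without after 3. Ccne1, the cyclin E that activates Cdk2 at the entry into S phase (ENSMUSG00000002068.16, chromosome 7, 38097984 to 38107534, minus strand), had 0.945, 0.863, 0.747 and 0.566 CPM before and 3.39, 4.60, 3.59 and 2.699 CPM after resection. Every library after lay above every library before (log2 fold change 2.18 ± 0.36, adjusted p 0.00111), and the change was alike in both sets of libraries (2.13 between the libraries numbered 1 and 2 and 2.27 between those numbered 3 and 4). Cdkn2c, the p18 inhibitor of Cdk4 and Cdk6, had 4.62, 3.39, 2.92 and 2.01 CPM before and 10.6, 10.1, 19.98 and 9.695 CPM after resection and rose without overlap (log2 fold change 1.95 ± 0.33, adjusted p 0.00169). Rbl1, the p107 member of the retinoblastoma family, rose from 1.91 ± 0.943 to 5.09 ± 0.935 CPM (SD, n = 4, log2 fold change 1.40 ± 0.38, adjusted p 0.0226), but was not called without after 3, before 3 or before 4 (adjusted p 0.0602 to 0.067). Foxm1, the factor that switches on mitotic genes, had 1.995, 1.93, 0.3396 and 0.503 CPM before and 4.99, 4.15, 16.6 and 6.72 CPM after resection. Its groups did not overlap (log2 fold change 2.74 ± 0.72, adjusted p 0.0231), yet the log2 fold change was 1.22 between the libraries numbered 1 and 2 and 4.78 between those numbered 3 and 4. It was not called without after 3, before 3 or before 4 (adjusted p 0.065 to 0.0695). Cdk4 and E2f2 were the other called members, both higher.

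Ccnd1, the cyclin D1 through which growth factors act on hepatocytes (ENSMUSG00000070348.5, chromosome 7, 144929931 to 144939925, minus strand), had 62.2, 56.4, 17.4 and 21.4 CPM before and 71.3, 135, 94.6 and 58.7 CPM after resection. Before 1 and before 2 already held levels near those of after 1 and after 4, the groups overlapped and the gene was not called (log2 fold change 1.19 ± 0.42, adjusted p 0.0744). In control its log2 fold change was 2.28. Cdkn1a, the p21 inhibitor and a target of p53, had 25.4, 73.1, 99.7 and 68.6 CPM before and 103, 83.3, 114 and 61.5 CPM after resection and overlapped widely (log2 fold change 0.44 ± 0.49, adjusted p 0.604). The 20 p53 targets held 3 higher and 1 lower call, with a median of 0.02 that changed its sign without before 1, before 2 or after 3 (-0.05, -0.01 and -0.03). The number of higher calls was 0 without after 3 or before 2 and 1 without before 1, before 3 or before 4.

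DNA replication rose in 23 of 36 measured genes and fell in 1, with a median of 0.93 (0.75 in the libraries numbered 1 and 2 and 1.30 in those numbered 3 and 4; 1.08 in control). The count of higher genes was 15 without after 3 or before 3, and in the libraries numbered 1 and 2 alone it was 9. Mcm6, a subunit of the replicative helicase (ENSMUSG00000026355.11, chromosome 1, 128331590 to 128359664, minus strand), had 7.03, 4.12, 3.396 and 3.33 CPM before and 13.9, 22.8, 26.8 and 22.6 CPM after resection. The lowest library after held 13.9 CPM and the highest before 7.03, so the groups were well apart (log2 fold change 2.26 ± 0.35, adjusted p 0.00111). Its partner Mcm5 rose from 2.72 ± 1.38 to 12.7 ± 4.93 CPM (log2 fold change 2.22 ± 0.43, adjusted p 0.00403). Gins2, of the complex that completes the helicase, had 0.787, 1.06, 0.204 and 0.314 CPM before and 2.88, 3.17, 6.803 and 2.15 CPM after resection and rose (log2 fold change 2.64 ± 0.58, adjusted p 0.00837). Uhrf1, which carries DNA methylation through replication, had the largest change of the list (2.42, 1.195, 0.679 and 0.942 CPM before and 5.72, 15.5, 10.8 and 6.78 CPM after resection; log2 fold change 2.86 ± 0.53, adjusted p 0.00322). After 2 was the highest library for Uhrf1, while in the summed mitotic level it was the lowest after resection. Mcm10, named after its values were seen as the single member that fell, had 59.5, 61.2, 82.5 and 117 CPM before and 29.2, 40.1, 29.8 and 64.1 CPM after resection. Its groups overlapped, since before 1 and before 2 lay under after 4. The adjusted p was 0.0447 (log2 fold change -0.97, -1.76 in control). The call was lost without after 1, after 2, after 3, before 3 or before 4 (adjusted p 0.0896 to 0.149).

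The promoters of these 2 lists differ in part in the short sequences they hold. They are shown because most called members of each list rose. A link between the sequences and the changes was not tested. Of the 29 mitosis genes with a RefSeq window (GRCm38.p6, 250 bases before to 50 after the start), 24 (82.8%) held the cell cycle homology element CHR (TTTGAA or TTTAAA) on either strand, against 30.6% of 27025 genes with a window. The CCAAT box (CCAAT) was in 25 of the 29 (86.2%), against 41.1% of all. It was also in 19 of the 30 DNA replication genes with a window (63.3%). Of 30 DNA replication genes, 9 (30.0%) held a CHR and 13 (43.3%) an E2F element (TTTGGCGC, TTTCCCGC, TTTGGCGG or TTTCCCGG, either strand), which 3.79% of all genes and 1 of the 29 mitosis genes (3.45%) held. The 120 bases before the start are printed 5′ to 3′ on the strand of the gene, with CHR and CCAAT matches in capitals for the first 3 genes and E2F matches for Mcm6, each read on either strand (GRCm38.p6: Ccnb1 chr13:100786487-100786606, minus strand; Cdc20 chr4:118437344-118437463, minus strand; Ube2c chr2:164769809-164769928, plus strand; Mcm6 chr1:128359706-128359825, minus strand). In Ccnb1 the CHR begins 42 bases before the start and the CCAAT boxes 99 and 67 bases before it, and in Mcm6 the E2F elements begin 110 and 47 bases before it. The Mcm6 stretch also holds CCAAT boxes on the opposite strand (ATTGG), which are left in lower case.
Ccnb1: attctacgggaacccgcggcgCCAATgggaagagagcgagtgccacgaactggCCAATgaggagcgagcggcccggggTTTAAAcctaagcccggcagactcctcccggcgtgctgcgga
Cdc20: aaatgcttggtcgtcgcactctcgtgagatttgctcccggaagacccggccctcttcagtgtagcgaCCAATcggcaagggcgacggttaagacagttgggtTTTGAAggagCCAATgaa
Ube2c: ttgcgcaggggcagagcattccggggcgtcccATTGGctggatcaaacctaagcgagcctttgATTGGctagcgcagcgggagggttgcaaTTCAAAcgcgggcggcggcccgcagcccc
Mcm6: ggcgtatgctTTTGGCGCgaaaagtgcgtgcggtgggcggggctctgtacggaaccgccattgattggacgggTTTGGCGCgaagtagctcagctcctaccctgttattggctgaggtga

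Mki67, the general marker of cycling cells (ENSMUSG00000031004.8, chromosome 7, 135689784 to 135716361, minus strand), had 6.09, 4.45, 1.56 and 1.82 CPM before and 24.7, 10.6, 72.9 and 26.7 CPM after resection and rose in all 4 numbers (log2 fold change 3.25 ± 0.71, adjusted p 0.0104). The change was 1.73 between the libraries numbered 1 and 2 and 4.89 between those numbered 3 and 4. Ccnb1, the cyclin B1 that starts mitosis and the first of the promoters above, had 1.78, 0.9296, 0.3396 and 0.126 CPM before and 3.57, 2.14, 42.7 and 7.93 CPM after resection. The groups did not overlap (log2 fold change 4.08 ± 1.18, adjusted p 0.0376), but before 1 and after 2 lay close together, and most of the mean after resection came from after 3. Cdc20, the activator of the anaphase-promoting complex, had 2.42, 2.46, 0.3396 and 0.628 CPM before and 6.27, 3.21, 81.3 and 18.01 CPM after resection (log2 fold change 4.19 ± 1.14, adjusted p 0.0292) and Hmmr, a spindle protein, 1.47, 0.996, 0.204 and 0.314 CPM before and 3.71, 1.79, 40.3 and 7.11 CPM after resection (log2 fold change 4.09 ± 1.11, adjusted p 0.0282). As for Ccnb1, after 3 was the highest and after 2 the lowest of the libraries after resection. The calls were lost without after 3, before 2, before 3 or before 4 (adjusted p 0.0795 to 0.136) for Ccnb1, without after 3, before 2, before 3 or before 4 (adjusted p 0.055 to 0.0975) for Cdc20 and without after 3, before 2, before 3 or before 4 (adjusted p 0.0605 to 0.0952) for Hmmr. With the number as a block their adjusted p was 0.0679, 0.0988 and 0.0702, so that the 3 were then not called.

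Ube2c, the ubiquitin-conjugating enzyme that works with that complex, kept its call in all 8 fits that left out 1 library (1.68, 2.06, 0.475 and 0.817 CPM before and 8.51, 5.67, 49.7 and 10.5 CPM after resection; log2 fold change 3.87 ± 0.90, adjusted p 0.014). Its change was 1.93 between the libraries numbered 1 and 2, where it was not called, and 5.54 between those numbered 3 and 4. Dlgap5, a spindle protein, was nearly absent from the resected tissue, with 20 counts over the 4 libraries, and had 0.4199, 0.7304, 0 and 0.0628 CPM before and 3.11, 1.88, 13.6 and 3.47 CPM after resection (log2 fold change 4.13 ± 1.04, adjusted p 0.0193, not called without after 3, before 3 or before 4, at adjusted p 0.0537 to 0.0594). Birc5, the survivin of the chromosomal passenger complex, rose from 1.72 ± 0.507 to 11.8 ± 11.9 CPM (log2 fold change 2.77 ± 0.70, adjusted p 0.0204). It was not called without after 3, before 2, before 3 or before 4 (adjusted p 0.052 to 0.0607).

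**Figure D2:**
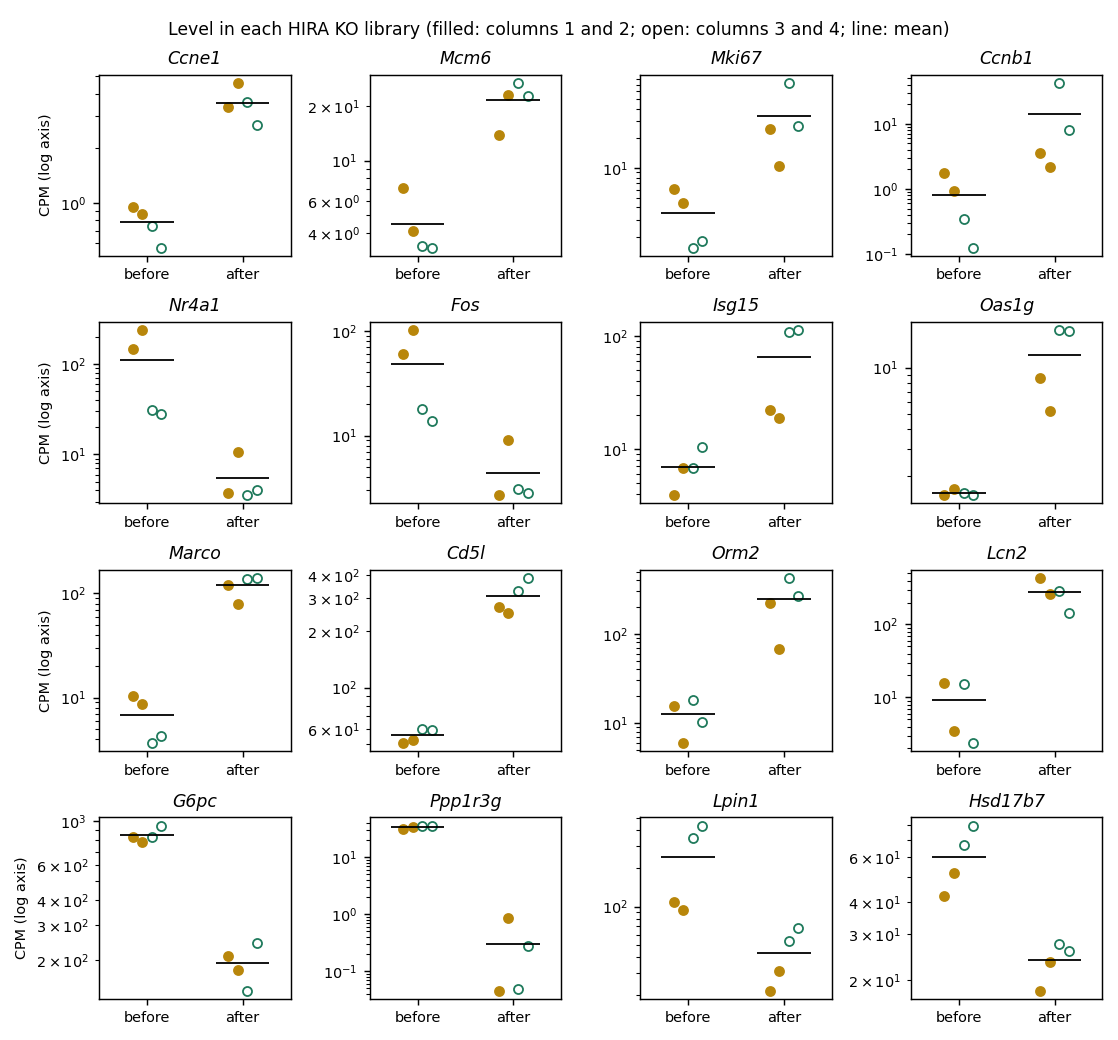
Level of 16 genes in each of the 8 HIRA KO libraries, in CPM on a log axis, before and after resection; filled points are the libraries numbered 1 and 2, open points those numbered 3 and 4, and the line is the mean of 4. In Ccnb1 the 4 libraries after range from 2.14 to 42.7 CPM, while in Ccne1, Cd5l and G6pc all libraries of a time lie close together.

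At the other end of the growth response, the immediate early genes, which stress and growth factors switch on within minutes, had more lower than higher calls. Of 27 measured members 9 fell, 1 rose and 17 were not called, with a median of -1.14 (-1.49 in the libraries numbered 1 and 2 and -0.51 in those numbered 3 and 4; -0.78 in control). The summed level was 1586, 2267, 1022 and 966 CPM before and 465, 789, 499.8 and 448 CPM after resection, and before 1 and before 2 stood above before 3 and before 4. Nr4a1, an orphan nuclear receptor (ENSMUSG00000023034.7, chromosome 15, 101254269 to 101274795, plus strand), had 147, 235, 30.9 and 28.3 CPM before and 3.71, 10.8, 3.54 and 4.08 CPM after resection (log2 fold change -4.32 ± 0.91, adjusted p 0.00868). Fos had 60.05, 101, 18.0 and 13.9 CPM before and 2.70, 9.15, 3.07 and 2.81 CPM after resection (log2 fold change -3.43 ± 0.75, adjusted p 0.0106) and Fosb, its paralog, 9.501, 23.97, 10.1 and 4.27 CPM before and 0.3204, 2.72, 0.335 and 0.165 CPM after resection (log2 fold change -3.71 ± 0.72, adjusted p 0.00469). After 2 was the highest library after resection for all 3 of these genes, and no library after reached the lowest before. Egr1, a zinc finger factor of the same class, fell from 211 ± 143 to 31.2 ± 15.4 CPM (log2 fold change -2.76 ± 0.58, adjusted p 0.00862). Junb, Ier2, Nr4a2, Dusp1 and Zfp36 were the other lower members. Ier5, named after its values were seen as the member that rose, had 9.45, 8.63, 7.74 and 6.35 CPM before and 12.9, 16.03, 16.8 and 13.1 CPM after resection (log2 fold change 0.87 ± 0.13, adjusted p 0.000802). The resected tissue was taken in surgery and the remaining liver after carbon dioxide, and the part of this in the fall of these genes was not tested.

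Growth factors, their receptors and binding proteins gave 2 higher (Btc and Tgfb1) and 5 lower calls among 30, and their median, -0.03, turned positive under total-count scaling (0.09), so no direction is given for the list. The number of lower calls was 3 without before 2, and that of higher calls 0 without before 3 or before 4, 1 without after 3, after 4 or before 2 and 4 without before 1. Igfbp1, a hepatocyte protein that binds insulin-like growth factors (ENSMUSG00000020429.7, chromosome 11, 7197782 to 7202546, plus strand), had 61.3, 236, 333 and 177 CPM before and 15.2, 22.6, 90.3 and 30.2 CPM after resection. The groups overlapped between before 1 and after 3 (log2 fold change -2.35 ± 0.70, adjusted p 0.0413). The call was lost without after 1, after 2, after 4, before 2, before 3 or before 4 (adjusted p 0.0738 to 0.105). Igfbp3, the main carrier of Igf1 in blood, fell without overlap (34.7, 41.4, 21.3 and 24.6 CPM before and 13.5, 12.2, 10.2 and 12.4 CPM after resection; log2 fold change -1.34 ± 0.27, adjusted p 0.00549). Erbb3, the partner receptor of the EGF family, had 132, 92.4, 177 and 136 CPM before and 55.2, 63.7, 80.8 and 89.6 CPM after resection (log2 fold change -0.89 ± 0.20, adjusted p 0.0089). Its log2 fold change in control was -0.25, and no member of the list was called for the difference from control (smallest edgeR adjusted p 0.272). Ereg and Vegfa were the other lower members, and Hgf, Met and Egfr were not called.

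YAP and TEAD targets, which report on tension and contact, split, with 3 members higher and 1 lower of 20 and a median of -0.14 that changed its sign in the libraries numbered 3 and 4 (0.07) and without before 1 (0.02). The count of lower members was 2 without after 1 or after 2 and 3 without before 4. Ccn2, the secreted matrix protein CTGF (ENSMUSG00000019997.11, chromosome 10, 24595442 to 24598683, plus strand), had 38.2, 36.5, 20.6 and 13.6 CPM before and 3.57, 8.22, 3.98 and 3.14 CPM after resection and fell in every number (log2 fold change -2.52 ± 0.41, adjusted p 0.00178). Ajuba, a scaffold protein of cell contacts, rose instead (10.1, 11.3, 3.599 and 6.53 CPM before and 27.1, 30.99, 20.2 and 16.2 CPM after resection; log2 fold change 1.58 ± 0.32, adjusted p 0.00585). Axl, a receptor tyrosine kinase also found on macrophages, rose from 22.6 ± 4.56 to 44.01 ± 3.47 CPM (log2 fold change 0.96 ± 0.19, adjusted p 0.00399), and Birc5, which mitotic cells express, is described above. With the number as a block 4 members were higher and 3 lower.

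Genes of the interferon response rose. All 34 measured members had a positive log2 fold change, and 24 were called higher and 0 lower, with a median of 1.62 (0.87 in the libraries numbered 1 and 2 and 2.04 in those numbered 3 and 4; 0.97 in control). In the libraries numbered 3 and 4 alone 33 of the 34 were called and in those numbered 1 and 2 18. The summed level was 837, 957, 938 and 1109 CPM before and 1439, 1239, 3089 and 3089 CPM after resection, so that after 3 and after 4 stood well above after 1 and after 2. In control it was 1122 to 1735 CPM before and 1941 to 2934 CPM after resection. The fit on only the 8 HIRA KO libraries called 16 members.

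Isg15, a ubiquitin-like protein induced by interferon (ENSMUSG00000035692.7), had 3.88, 6.71, 6.72 and 10.4 CPM before and 22.3, 18.98, 109 and 112 CPM after resection (log2 fold change 3.25 ± 0.63, adjusted p 0.00549). Its libraries after fell into a lower pair, after 1 and after 2, and a higher pair. Ifi44 showed the same order, with 2.52, 4.05, 4.41 and 6.97 CPM before and 15.3, 7.64, 62.1 and 74.7 CPM after resection (log2 fold change 3.15 ± 0.64, adjusted p 0.00732). Oas1g, a sensor of double-stranded RNA (ENSMUSG00000066861.14, chromosome 5, 120876142 to 120887613, minus strand), was nearly constant in the resected tissue and had 1.52, 1.66, 1.56 and 1.51 CPM before and 8.51, 5.22, 17.3 and 17.2 CPM after resection (log2 fold change 2.94 ± 0.35, adjusted p 0.000167). Its neighbor Oas1a rose from 3.88 ± 0.378 to 26.5 ± 13.8 CPM (log2 fold change 2.77 ± 0.38, adjusted p 0.000638). All 4 genes kept their calls in the 8 fits that left out 1 library, but Ifi44 was not called when only the 8 HIRA KO libraries were fitted. Since Oas1a and Oas1g have close paralogs, reads may be shared between them. Ifit1, Ifit3, Irf7, Mx1, Zbp1 and Bst2 were among the other called members.

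The interferon-stimulated response element ISRE (searched as GAAA, any 2 bases and GAAA again, on either strand) was in 16 of the 25 members with a window (64.0%), against 3.99% of all 27025 genes. It is shown in capitals in the 120 bases before the start of 3 of the genes just described (GRCm38.p6: Isg15 chr4:156200819-156200938, Oas1g chr5:120887614-120887733 and Oas1a chr5:120907526-120907645, all minus strand). Overlapping matches run together in these stretches, beginning 78, 72 and 66 bases before the start in Isg15, 18 and 12 in Oas1g and 20 and 14 in Oas1a.
Isg15: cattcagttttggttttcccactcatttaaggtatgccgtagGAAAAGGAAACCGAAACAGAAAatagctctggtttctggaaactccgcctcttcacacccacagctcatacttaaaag
Oas1g: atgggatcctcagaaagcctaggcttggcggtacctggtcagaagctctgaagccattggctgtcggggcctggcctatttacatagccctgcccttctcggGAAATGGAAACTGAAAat
Oas1a: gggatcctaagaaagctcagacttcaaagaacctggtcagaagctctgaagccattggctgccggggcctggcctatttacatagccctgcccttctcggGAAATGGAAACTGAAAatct

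Genes of antigen presentation on MHC class I had higher calls as well. Of 16 measured members 8 rose and 0 fell, with a median of 0.68 (0.45 in the libraries numbered 1 and 2 and 0.80 in those numbered 3 and 4; 0.29 in control). Psmb8, a subunit of the immunoproteasome, which cuts peptides for MHC class I (ENSMUSG00000024338.15, chromosome 17, 34197721 to 34201454, plus strand), had 20.3, 19.1, 19.4 and 21.2 CPM before and 28.6, 39.2, 66.02 and 65.5 CPM after resection (log2 fold change 1.32 ± 0.23, adjusted p 0.00212). The libraries before were close together, and after 3 and after 4 were again the higher ones. Psmb10 of the same complex rose from 19.98 ± 2.89 to 39.5 ± 7.99 CPM (log2 fold change 0.98 ± 0.18, adjusted p 0.00254) and H2-T23, a class I heavy chain of a family with similar members, from 124 ± 16.2 to 235 ± 64.4 CPM (log2 fold change 0.92 ± 0.18, adjusted p 0.0031). H2-D1, H2-Q4, H2-Q6, Tapbp and Psmb9 were the other called members.

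Markers of Kupffer cells and other macrophages, the resident and recruited phagocytes of the liver, rose in both sets of libraries. Of 25 measured markers 18 were called higher and 0 lower, with a median of 1.52 (1.37 in the libraries numbered 1 and 2 and 1.55 in those numbered 3 and 4; 1.13 in control). Their summed level was 549, 526, 499.5 and 528 CPM before and 1644, 1394, 1764 and 1819 CPM after resection, and in control 360.0 to 809.6 CPM before and 1477 to 1691 CPM after resection. No library after came near a library before, and the libraries within a time were alike. In the libraries numbered 3 and 4 alone 7 members were called and in those numbered 1 and 2 19.

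Cd5l, a protein secreted by tissue macrophages (ENSMUSG00000015854.7, chromosome 3, 87357881 to 87371073, plus strand), had 50.6, 52.7, 60.2 and 59.4 CPM before and 269.5, 249.8, 326 and 384 CPM after resection (log2 fold change 2.46 ± 0.25, adjusted p 6.97e-05). Marco, a scavenger receptor (ENSMUSG00000026390.7, chromosome 1, 120474538 to 120505024, minus strand), had 10.4, 8.699, 3.67 and 4.27 CPM before and 119.7, 79.0, 139 and 140.4 CPM after resection (log2 fold change 4.13 ± 0.50, adjusted p 0.000362). For Marco before 1 and before 2 lay above before 3 and before 4, but all were low against the libraries after. Mpeg1, the pore-forming perforin-2 of macrophages, rose from 75.6 ± 11.2 to 306 ± 63.7 CPM (log2 fold change 2.02 ± 0.18, adjusted p 1.69e-05). Chil3, a marker of recruited and alternatively activated macrophages, was at the limit of detection in the resected tissue, with 8 counts over 4 libraries, and had 0.158, 0.0664, 0.204 and 0.0628 CPM before and 12.6, 5.94, 2.395 and 1.598 CPM after resection (log2 fold change 5.44 ± 0.68, adjusted p 0.000251). Clec4f, Vsig4 and Timd4, which mark resident Kupffer cells, and Ccr2 and Ly6c2, which mark recruited monocytes, were all called higher. Trem2 and Spic were higher too.

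Neutrophil markers gave 4 higher and 0 lower calls among 13 measured genes (median 1.20), and Ly6g was under the count minimum. Their summed level, 45.2, 19.8, 27.3 and 6.41 CPM before and 468, 284, 303 and 158 CPM after resection, was after resection mostly that of Lcn2, a secreted iron-binding protein that hepatocytes also make in the acute phase. Lcn2 (ENSMUSG00000026822.14, chromosome 2, 32384633 to 32388252, minus strand) had 15.5, 3.52, 15.3 and 2.39 CPM before and 432, 259, 286 and 143 CPM after resection (log2 fold change 4.92 ± 1.14, adjusted p 0.0137). Before 1 and before 3 lay above before 2 and before 4, and the lowest library after, at 143 CPM, was far above the highest before, at 15.5. Prtn3, a protease of neutrophil precursors that was no member of the list, had 0.472, 0.266, 0.679 and 0.189 CPM before and 15.8, 6.43, 17.3 and 9.64 CPM after resection (log2 fold change 4.91 ± 0.67, adjusted p 0.000681). S100a8, Mpo and Ngp were the other called markers. The count of higher markers was 2 without before 4.

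Markers of the other cell types had fewer calls. Endothelial markers had 2 higher and 2 lower calls of 20 and a median of -0.29 (-0.16 in the libraries numbered 1 and 2 and -0.51 in those numbered 3 and 4), in the libraries numbered 3 and 4 alone 10 were lower, and with the block 2 were higher and 5 lower. The count of higher markers was 1 without after 3 or before 3, and that of lower ones 0 without before 4, 1 without after 3, after 4 or before 2 and 4 without before 1. Plvap, a protein of fenestrated endothelium, rose from 36.9 ± 1.38 to 63.4 ± 9.67 CPM (log2 fold change 0.78 ± 0.15, adjusted p 0.00276) and Cdh5, the cadherin of endothelial junctions, from 24.97 ± 2.98 to 34.8 ± 2.11 CPM (log2 fold change 0.48 ± 0.12, adjusted p 0.0172, not called without after 3 or before 3, at adjusted p 0.0502 and 0.0505). Kdr, the VEGF receptor, went the other way with 38.7, 47.4, 45.4 and 63.8 CPM before and 32.1, 40.1, 28.7 and 28.5 CPM after resection (log2 fold change -0.59 ± 0.17, adjusted p 0.0303, not called without after 1, after 3, after 4, before 2 or before 4, at adjusted p 0.0518 to 0.125), and so did Oit3 of the liver sinusoid (from 30.5 ± 6.86 to 18.6 ± 1.62 CPM; log2 fold change -0.71 ± 0.18, adjusted p 0.0144, not called without before 4, at adjusted p 0.0622). Stellate cell and matrix genes had 1 call, Timp1 higher, of 24. Their summed level was 1179.8, 902, 484 and 512 CPM before and 943, 781, 653 and 701 CPM after resection, and before 1 and before 2 held more than any other library but after 1. The median of that list was 0.10 over all libraries and changed its sign between the sets (-0.26 in the libraries numbered 1 and 2 and 0.86 in those numbered 3 and 4).

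T and NK cell, B and plasma cell, dendritic cell and erythroid markers gave between 0 and 2 calls each (Gzmb higher, none, Cd209a lower, and Slc4a1 higher with Klf1 lower). The summed B and plasma cell level was 719, 390.1, 278 and 297 CPM before and 1019.8, 456, 327 and 274 CPM after resection. The before 1 and after 1 libraries, which share a number, held the most. Cholangiocyte markers had 1 call of 13 (Ggt1, higher) and a summed level of 267, 142, 88.1 and 107 CPM before and 219.8, 190.4, 153 and 116 CPM after resection. Of 8 mesothelial markers the keratins Krt8 and Krt18, which hepatocytes also make, were the called ones. Krt18 had 176, 202, 160.4 and 127 CPM before and 771, 702, 461 and 331 CPM after resection (log2 fold change 1.77 ± 0.24, adjusted p 0.000341) and Krt8 rose from 194 ± 34.8 to 448 ± 122 CPM (log2 fold change 1.21 ± 0.19, adjusted p 0.000824), with after 1 and after 2 above after 3 and after 4 in both. Of 12 markers of the pancreas 3 were measured and 0 called, and of 10 of the gut 5 were measured and 2 were lower, Lgr5 and Olfm4. Olfm4 rested on a single library, with 24.2, 0.0664, 0.0679 and 0.0628 CPM before and 0.0458, 0, 0 and 0 CPM after resection.

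**Figure D3:**
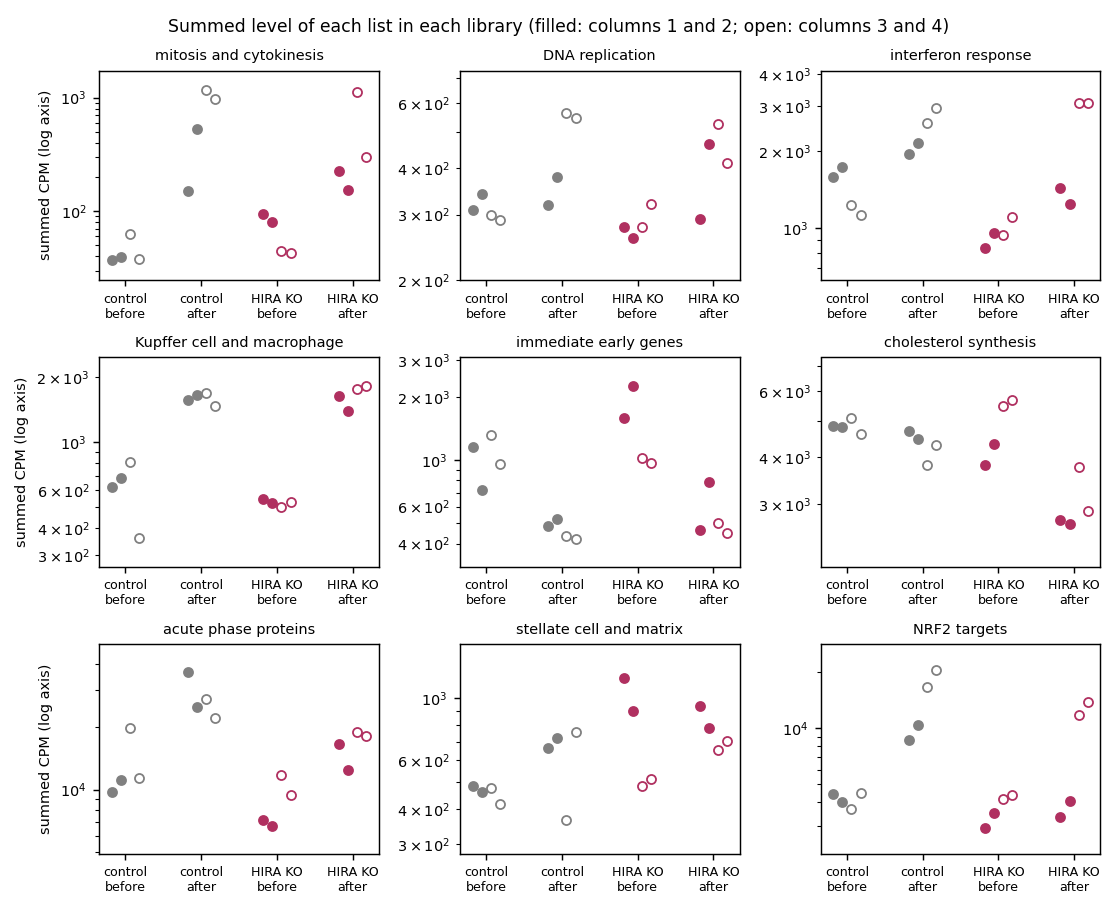
Summed level of 9 gene lists in each of the 16 libraries, in CPM on a log axis, by genotype and time; grey is control, red is HIRA KO, filled points are the libraries numbered 1 and 2 and open points those numbered 3 and 4. Kupffer cell and macrophage markers rose in every HIRA KO library after resection, while among the HIRA KO libraries the stellate cell and matrix sum was highest in before 1 and after 1.

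Among secreted proteins of the hepatocyte, those of the acute phase had calls in 1 direction. Of 22 members 9 were called higher, 0 lower and 13 not called, with a median of 0.95 (1.07 in the libraries numbered 1 and 2 and 1.08 in those numbered 3 and 4; 1.18 in control), and the summed level was 7164, 6703, 11683 and 9399 CPM before and 16547, 12394, 18892 and 18039.6 CPM after resection. Orm2, an orosomucoid (ENSMUSG00000061540.3, chromosome 4, 63362449 to 63365878, plus strand), had 15.7, 5.98, 18.1 and 10.4 CPM before and 221, 68.5, 423 and 263 CPM after resection (log2 fold change 4.28 ± 0.68, adjusted p 0.00176). Its paralogs Orm1 and Orm3, which may share reads with it, rose too. Orm1 had 783, 562, 773 and 606 CPM before and 1914, 1269, 1970.0 and 2004 CPM after resection (log2 fold change 1.39 ± 0.25, adjusted p 0.00228) and Orm3 rose from 1.81 ± 1.22 to 8.69 ± 1.94 CPM (log2 fold change 2.24 ± 0.55, adjusted p 0.0172, not called without before 4, at adjusted p 0.0572). After 2 was the lowest library after resection for all 3 paralogs. Fgl1, a hepatocyte protein found to rise when liver regrows, had 192, 128, 379 and 149.6 CPM before and 1005, 570.1, 909.7 and 686 CPM after resection (log2 fold change 1.90 ± 0.49, adjusted p 0.0203), with no call without before 2 or before 4 (adjusted p 0.0552 and 0.0632). Hp, the haptoglobin that binds free hemoglobin, rose from 2000.2 ± 1060.4 to 4727 ± 1401 CPM (log2 fold change 1.24 ± 0.36, adjusted p 0.0307), not called without after 3, after 4, before 1 or before 2 (adjusted p 0.0671 to 0.0812). Apcs, Itih3 and Cp were further called members, and with the number as a block 13 were higher and 1 lower.

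Hpx, the hemopexin that binds heme (ENSMUSG00000030895.9, chromosome 7, 105591613 to 105600137, minus strand), gave the largest rise in CPM among the called genes whose groups did not overlap. It had 7964, 5883, 4561 and 3724 CPM before and 18952, 15194, 13626 and 13848 CPM after resection (log2 fold change 1.48 ± 0.26, adjusted p 0.0017). All 4 libraries after lay far above the highest before. Clu, a secreted chaperone, had 1778, 1264, 1729 and 1528 CPM before and 4769, 4111, 2582 and 2626 CPM after resection (log2 fold change 1.16 ± 0.21, adjusted p 0.00196), with after 1 and after 2 the higher ones, and Ambp, the precursor of the plasma protein bikunin, rose from 2648 ± 421 to 4316 ± 589 CPM (log2 fold change 0.70 ± 0.16, adjusted p 0.00952).

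Most other plasma proteins did not change together. The 30 on the list had 2 higher and 3 lower calls and a median of -0.09 that turned positive under total-count scaling (0.03) and without after 1 (0.01). Alb, the albumin gene and the most abundant transcript, had 134301, 119105, 95538 and 109829.5 CPM before and 113872, 123476, 98899 and 105589 CPM after resection and was not called (log2 fold change -0.05 ± 0.18, adjusted p 0.877). Ttr, the thyroxine carrier, had 9571, 8542, 5785 and 6819.5 CPM before and 2956, 4304, 4928 and 6657 CPM after resection (log2 fold change -0.70 ± 0.22, adjusted p 0.0384). Its change was -1.32 between the libraries numbered 1 and 2 and -0.11 between those numbered 3 and 4. The call was lost without after 1, after 2, after 3, before 1, before 2 or before 4 (adjusted p 0.0637 to 0.0972). Serpina1c, an antitrypsin of a family with near-identical members, had 2667, 2861, 2185 and 2432 CPM before and 933, 1166, 1435 and 1739 CPM after resection (log2 fold change -0.94 ± 0.19, adjusted p 0.00416). Rbp4, the retinol carrier, fell from 3228 ± 278 to 1972 ± 359.8 CPM (log2 fold change -0.71 ± 0.15, adjusted p 0.00486) and Mug1, a protease inhibitor, from 2807 ± 337 to 1452 ± 471 CPM (log2 fold change -0.95 ± 0.25, adjusted p 0.0193, not called without after 1, after 2 or before 4, at adjusted p 0.0517 to 0.0612). Apoa4 and Hpx were the higher members.

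Of 18 measured genes of fetal liver and progenitors 5 rose and 0 fell (median 0.79, 0.82 in the libraries numbered 1 and 2 and 0.82 in those numbered 3 and 4), and the count of higher genes was 2 without before 3 or before 4 and 3 without after 1 or before 2. Afp, alpha-fetoprotein (ENSMUSG00000054932.6, chromosome 5, 90490737 to 90508907, plus strand), stayed at a low level with 2.05, 2.72, 2.44 and 2.45 CPM before and 6.09, 5.05, 3.54 and 2.48 CPM after resection. The groups overlapped between before 2 and after 4 (log2 fold change 0.83 ± 0.25, adjusted p 0.0373), and it was not called without after 1, after 2, before 1, before 2, before 3 or before 4 (adjusted p 0.0547 to 0.117). Tnfrsf12a, the receptor of TWEAK, a cytokine that acts on liver progenitors, had 7.03, 13.6, 6.72 and 5.91 CPM before and 38.7, 38.4, 31.8 and 16.4 CPM after resection (log2 fold change 1.92 ± 0.47, adjusted p 0.0166, not called without before 3 or before 4, at adjusted p 0.0523 and 0.0527). H19, Lcn2 and Hk2 were the other called members.

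Genes of lipid synthesis that were called were lower. Of the 25 genes of cholesterol synthesis and uptake 16 were called lower and 0 higher, with a median of -0.99 (-0.79 in the libraries numbered 1 and 2 and -1.04 in those numbered 3 and 4; -0.49 in control). The summed level was 3817, 4344, 5449 and 5663 CPM before and 2714, 2655, 3770.3 and 2882 CPM after resection, against 4602 to 5086 CPM before and 3801 to 4682 CPM after resection in control. The count of lower genes was 10 without before 3 or before 4, and 8 when only the 8 HIRA KO libraries were fitted. Hsd17b7, which reduces the sterol ring (ENSMUSG00000026675.12, chromosome 1, 169949535 to 169969241, minus strand), had 42.4, 51.7, 66.96 and 79.2 CPM before and 18.2, 23.4, 27.6 and 25.9 CPM after resection. The highest library after was well under the lowest before (log2 fold change -1.34 ± 0.20, adjusted p 0.000638), and the call held in all 8 fits that left out a library. Tm7sf2, a sterol reductase, had 60.8, 67.4, 125 and 139.6 CPM before and 29.2, 26.1, 48.9 and 52.1 CPM after resection (log2 fold change -1.33 ± 0.29, adjusted p 0.00753) and Fdps, which makes farnesyl diphosphate, fell from 107 ± 42.9 to 43.1 ± 13.7 CPM (log2 fold change -1.32 ± 0.33, adjusted p 0.0181, not called without before 3 or before 4, at adjusted p 0.0545 and 0.0622). Idi1, which isomerizes the isoprene unit (ENSMUSG00000058258.14, chromosome 13, 8885501 to 8892451, plus strand), had 19.1, 23.5, 48.02 and 57.4 CPM before and 8.01, 4.91, 20.5 and 15.9 CPM after resection. Before 1 overlapped after 3, since the libraries numbered 1 and 2 were lower at both times, and the change was alike in both sets (-1.72 between the libraries numbered 1 and 2 and -1.52 between those numbered 3 and 4; log2 fold change -1.59 ± 0.44, adjusted p 0.0297). The call of Idi1 was lost without after 1, after 2, before 3 or before 4 (adjusted p 0.0601 to 0.0935).

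The CCAAT box, to which the factor NF-Y binds beside the sterol regulators, was in 16 of the 17 members with a window (94.1%), against 41.1% of all genes, and none of the 17 held an E2F element. It is shown in capitals, on either strand, in the 120 bases before the start of 2 members just described (GRCm38.p6: Idi1 chr13:8885486-8885605, plus strand, and Hsd17b7 chr1:169969206-169969325, minus strand). The boxes begin 45 and 14 bases before the RefSeq start in Idi1 and 73 and 12 in Hsd17b7. In both genes this start lies inside the gene coordinates printed above, so part of each stretch is within the gene as given there.
Idi1: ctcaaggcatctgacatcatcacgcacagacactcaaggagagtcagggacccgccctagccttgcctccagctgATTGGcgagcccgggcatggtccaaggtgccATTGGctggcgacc
Hsd17b7: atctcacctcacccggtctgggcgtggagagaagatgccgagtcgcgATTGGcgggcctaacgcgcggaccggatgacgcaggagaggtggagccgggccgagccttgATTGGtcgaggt

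Fatty acid and triglyceride synthesis gave 9 lower and 0 higher calls of 27, with a median of -0.85 (-0.55 in the libraries numbered 1 and 2 and -1.06 in those numbered 3 and 4; -0.51 in control). The number was 4 without before 4 and 5 without after 1 or before 3. Fasn, the fatty acid synthase (ENSMUSG00000025153.9, chromosome 11, 120805846 to 120824547, minus strand), had 795, 1196, 1875 and 2333 CPM before and 528, 390.0, 657 and 571 CPM after resection (log2 fold change -1.53 ± 0.33, adjusted p 0.00722). Lpin1, a phosphatase that makes diacylglycerol and also acts on Ppara targets (ENSMUSG00000020593.16), had 109, 93.96, 346 and 435 CPM before and 21.8, 31.04, 53.6 and 67.7 CPM after resection (log2 fold change -2.50 ± 0.60, adjusted p 0.0163, not called without before 4, at adjusted p 0.0539). At both times the libraries numbered 3 and 4 lay above those numbered 1 and 2. Acacb, the acetyl-CoA carboxylase of mitochondria, had 149.8, 79.2, 179 and 232 CPM before and 42.3, 31.3, 64.2 and 69.6 CPM after resection (log2 fold change -1.63 ± 0.38, adjusted p 0.0121; -0.38 in control). Thrsp, a lipogenic protein of the thyroid hormone response, fell from 561 ± 311 to 169 ± 43.1 CPM (log2 fold change -1.73 ± 0.44, adjusted p 0.0204). Thrsp was not called without after 1, before 3 or before 4 (adjusted p 0.0521 to 0.0722), nor with the number as a block (adjusted p 0.0505). Acly, Elovl5, Elovl6, Gpam and Mlxipl were lower as well.

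Fatty acid oxidation had 1 higher and 2 lower calls of 28 (median -0.25), and 1 and 6 with the number as a block. In the reported fit this was under the 13.9% called over all genes. The count of lower genes was 1 without after 1, after 2, after 3, before 3 or before 4. Ppara, the receptor that governs this pathway, fell from 54.5 ± 24.1 to 29.98 ± 6.98 CPM (log2 fold change -0.86 ± 0.26, adjusted p 0.0401). Before 1 and before 2 lay close to after 3 and after 4, and Ppara was not called without after 1, after 2, after 3, before 3 or before 4 (adjusted p 0.0523 to 0.139). Ucp2, an uncoupling protein that macrophages and cycling cells express more than resting hepatocytes, was the member that rose (43.7, 28.02, 45.4 and 38.1 CPM before and 76.99, 67.5, 120.4 and 91.99 CPM after resection; log2 fold change 1.20 ± 0.18, adjusted p 0.000725).

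In glucose and glycogen metabolism 3 genes rose and 5 fell of 28 (median -0.18), and 4 and 10 with the number as a block. Without before 4 there were 3 lower. The change of Ppp1r3g, a subunit that targets a phosphatase to glycogen after feeding (ENSMUSG00000050423.11, chromosome 13, 35958839 to 35970388, plus strand), was the largest fall of the list, with 31.2, 34.3, 34.9 and 35.5 CPM before and 0.0458, 0.849, 0.0479 and 0.275 CPM after resection (log2 fold change -6.74 ± 0.85, adjusted p 0.000529). The libraries before were alike and those after held 26 counts in all. G6pc, the glucose-6-phosphatase that releases glucose from the liver (ENSMUSG00000078650.2, chromosome 11, 101367561 to 101377903, plus strand), had 836, 782, 837 and 948 CPM before and 209.5, 178, 140.0 and 244 CPM after resection (log2 fold change -2.14 ± 0.26, adjusted p 0.000153). Pck1, the entry enzyme of gluconeogenesis, had 4286, 3427, 3319 and 2612 CPM before and 1087, 2697, 841 and 1307 CPM after resection (log2 fold change -1.20 ± 0.29, adjusted p 0.0116). After 2 overlapped before 4 for Pck1, and the gene kept its call in all 8 fits that left out a library. Pck1 was not called when only the 8 HIRA KO libraries were fitted, nor in the libraries numbered 1 and 2 alone. Pygl fell, and Hk2, Pkm and Pgd, of the glucose use typical of growing cells, rose.

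Genes of amino acid catabolism and the urea cycle gave 1 higher and 3 lower calls of 30 (median -0.30), and 1 and 9 with the number as a block. Tat, the tyrosine aminotransferase (ENSMUSG00000001670.13, chromosome 8, 109990437 to 109999803, plus strand), had 4169.7, 3289.9, 3166 and 2165 CPM before and 913, 1501, 752 and 602 CPM after resection (log2 fold change -1.76 ± 0.27, adjusted p 0.000802). Tdo2 and Hal were the other lower members and Nags, which makes the activator of the urea cycle, the higher one.

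Genes of both ends of the lobule had more lower than higher calls. Periportal genes had 1 higher and 5 lower calls of 24 (median -0.26) and pericentral ones 2 and 4 of 23 (median -0.30), and with the number as a block these were 2 and 8 in each list. The lower pericentral genes were 1 without before 4 and 2 without after 2, after 3 or before 3, and the higher ones 1 without after 3, after 4, before 1, before 2, before 3 or before 4. Cyp2f2, the periportal cytochrome (ENSMUSG00000052974.8, chromosome 7, 27119909 to 27133660, plus strand), had 2491, 2239.9, 1958 and 1978 CPM before and 1018, 1223, 1258 and 1565 CPM after resection (log2 fold change -0.78 ± 0.15, adjusted p 0.00364; -0.35 in control). Pigr, the receptor that carries immunoglobulin A into bile, fell from 1308 ± 332 to 678 ± 173 CPM (log2 fold change -0.95 ± 0.22, adjusted p 0.00949). Ces1d, a pericentral lipase, had 346, 366, 745 and 734 CPM before and 78.2, 244, 342 and 253 CPM after resection (log2 fold change -1.26 ± 0.36, adjusted p 0.0329, not called without after 2, after 4, before 3 or before 4, at adjusted p 0.0532 to 0.1). Lgr5 and Znrf3, of the Wnt signal that maintains the pericentral zone, were lower, and Slc1a4 and Rhbg higher.

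Bile acid genes gave 1 higher and 1 lower call of 24 (median -0.33), and 2 and 6 with the number as a block. In the reported fit this was under the 13.9% called over all genes. The count of lower genes was 2 without before 1 and 5 without after 4. Cyp27a1, of the alternative route of synthesis (ENSMUSG00000026170.6, chromosome 1, 74713574 to 74737892, plus strand), had 409, 425, 568 and 559 CPM before and 150.2, 167, 268 and 337 CPM after resection (log2 fold change -1.09 ± 0.23, adjusted p 0.00507). Slc51b, a subunit of the exporter that returns bile acids to the blood, rose from a low level, with 0.472, 0.7304, 0.747 and 0.314 CPM before and 5.17, 6.25, 4.65 and 4.13 CPM after resection (log2 fold change 3.16 ± 0.48, adjusted p 0.000759). Cyp7a1, the rate-limiting enzyme of the main route, had 33.6, 52.3, 41.8 and 37.6 CPM before and 51.1, 23.9, 26.6 and 24.3 CPM after resection and was not called (log2 fold change -0.39 ± 0.67, adjusted p 0.75). Slc10a1, the uptake transporter NTCP (ENSMUSG00000021135.8, chromosome 12, 80953183 to 80968705, minus strand), had 44.7, 109.9, 573 and 674 CPM before and 39.2, 54.4, 251 and 285 CPM after resection. At both times the libraries numbered 1 and 2 held a small part of the level of those numbered 3 and 4, so that the spread was wide and the gene was not called (log2 fold change -1.16 ± 0.77, adjusted p 0.35). With the number as a block it was called at an adjusted p of 0.0030.

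The transcription factors that keep hepatocyte identity had 0 higher and 3 lower calls of 24 (median -0.24). This share was near the 13.9% called over all genes, of which 6.22% were lower. The number of lower factors was 0 without before 3 or before 4, 1 without after 2 or after 3 and 6 without after 4. Hnf4a had 469, 542, 674 and 767 CPM before and 356, 593, 599.5 and 709.7 CPM after resection and was not called (log2 fold change -0.12 ± 0.19, adjusted p 0.73). Ppara and Nr5a2 were among the lower members. In the libraries numbered 1 and 2 alone 2 members were higher and 0 lower, and in those numbered 3 and 4 alone 0 were higher and 5 lower. With the number as a block 1 was higher and 5 lower.

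Male mouse liver differs from female liver through the pulses of growth hormone, and genes of both kinds were examined. Of 24 measured female-biased genes 4 were called higher and 0 lower (median 0.68, 1.32 in the libraries numbered 1 and 2 and 0.55 in those numbered 3 and 4). The number was 1 without before 4 and 2 without after 3, before 1, before 2 or before 3, and with the number as a block 9 were higher and 1 lower. Cyp2a4, a steroid hydroxylase (ENSMUSG00000074254.4, chromosome 7, 26307169 to 26315088, plus strand), had 3.52, 3.59, 3.73 and 1.89 CPM before and 33.9, 184, 206 and 71.4 CPM after resection (log2 fold change 5.28 ± 1.39, adjusted p 0.0251). Before 4 was the lowest of all, and the libraries after spread from 33.9 to 206 CPM. The call was lost without after 3, before 1, before 2, before 3 or before 4 (adjusted p 0.0542 to 0.0723). Cyp3a41a had 0.158, 0.133, 0.136 and 0 CPM before and 5.86, 3.97, 8.57 and 0.0551 CPM after resection (log2 fold change 5.34 ± 1.10, adjusted p 0.00679) and Cyp3a44 0.787, 0.664, 0.407 and 0.377 CPM before and 5.401, 7.19, 19.2 and 0.551 CPM after resection (log2 fold change 3.82 ± 0.97, adjusted p 0.0207, not called without after 3, before 3 or before 4, at adjusted p 0.0576 to 0.0632). After 4 stayed at the level of the resected tissue in both of these genes. The 3 cytochromes have close paralogs with which they may share reads.

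Cux2, a repressor found in female liver, had 0.945, 1.59, 0.747 and 0.503 CPM before and 12.4, 11.6, 0.575 and 0.606 CPM after resection (log2 fold change 2.73 ± 0.82, adjusted p 0.0413). It rose in after 1 and after 2 alone, by 3.25 on the log2 scale, and had a log2 fold change of -0.06 in the libraries numbered 3 and 4 (adjusted p 0.96). The call was lost without after 1, after 2, before 1, before 2, before 3 or before 4 (adjusted p 0.0563 to 0.109). Of 30 male-biased genes 1 was higher and 0 lower (median -0.63, -1.24 in the libraries numbered 1 and 2 and -0.23 in those numbered 3 and 4; -1.44 in control), and 2 and 5 with the number as a block. The higher one was Spink1, a trypsin inhibitor that had 0.997, 1.13, 0.204 and 0.126 CPM before and 9.02, 5.49, 5.46 and 8.76 CPM after resection (log2 fold change 3.51 ± 0.45, adjusted p 0.000243). Mup3, a major urinary protein of a family with near-identical members, had 565, 855, 4798 and 5065 CPM before and 320.5, 356, 2069 and 2589 CPM after resection. As for Slc10a1, libraries of the same number lay close to each other, and Mup3 was not called without the block (log2 fold change -1.08 ± 0.75, adjusted p 0.371) and was called with it (adjusted p 0.000456). Ghr, the growth hormone receptor, fell from 375 ± 81.8 to 226 ± 50.9 CPM (log2 fold change -0.73 ± 0.21, adjusted p 0.0279, not called without after 1, after 2, before 3 or before 4, at adjusted p 0.0698 to 0.1), within a growth hormone list of 14 genes with 1 higher and 4 lower calls (median -0.71). The count of lower ones was 2 without after 1, after 2, before 3 or before 4.

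Genes of detoxification had higher and lower calls, where over all genes 7.63% were called higher and 6.22% lower. Of 20 targets of NRF2, the regulator of the antioxidant response, 4 rose and 0 fell, with a median of 0.69. The median was 0.08 in the libraries numbered 1 and 2 and 1.15 in those numbered 3 and 4, and 1.30 in control. The summed level was 2923, 3516, 4173 and 4395 CPM before and 3349, 4089.6, 11779 and 13836 CPM after resection, so that after 1 and after 2 remained near the libraries before, while after 3 and after 4 lay well above them. In the libraries numbered 3 and 4 12 members were called. Gstm3, a glutathione transferase of a family with similar members (ENSMUSG00000004038.9, chromosome 3, 107963696 to 107969283, minus strand), had 51.6, 70.2, 69.3 and 73.8 CPM before and 209.7, 188, 1824 and 1359 CPM after resection (log2 fold change 3.76 ± 0.79, adjusted p 0.00848). The change was 1.71 between the libraries numbered 1 and 2 and 4.49 between those numbered 3 and 4, and with the number as a block it was not called (adjusted p 0.0709). Gstm2 had 40.3, 26.03, 39.2 and 49.5 CPM before and 80.9, 60.7, 246 and 219 CPM after resection (log2 fold change 1.97 ± 0.46, adjusted p 0.0131), in the same order. Srxn1, which repairs oxidized peroxiredoxins, had 45.2, 46.3, 52.7 and 50.3 CPM before and 82.2, 62.97, 379 and 209 CPM after resection (log2 fold change 1.91 ± 0.57, adjusted p 0.0396), and was not called without after 3, after 4, before 1, before 2, before 3 or before 4 (adjusted p 0.0685 to 0.127), nor with the block (adjusted p 0.102).

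Osgin1 (ENSMUSG00000074063.10, chromosome 8, 119434124 to 119446256, plus strand) and Hmox1, of the same list, rose in both sets. Osgin1 had 285, 278, 157 and 144 CPM before and 664, 956, 912 and 913 CPM after resection (log2 fold change 1.99 ± 0.31, adjusted p 0.000837) and Hmox1, the heme oxygenase that macrophages also express, rose from 20.9 ± 3.91 to 56.8 ± 18.2 CPM (log2 fold change 1.44 ± 0.22, adjusted p 0.000773). Among 24 targets and receptors of the CAR and PXR system 2 rose, Gstm2 and Gstm3, and 2 fell (median 0.17, of no fixed sign, -0.01 without after 2), and 2 and 6 with the number as a block. Ces2a, a carboxylesterase, was one of the lower ones (453, 581, 389 and 414 CPM before and 188, 271, 200.4 and 297 CPM after resection; log2 fold change -0.94 ± 0.21, adjusted p 0.00815) and Ugt1a1 the other.

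The tissue before was taken in surgery done in the morning, while the hour at which the tissue after was taken is not given in the sources used here, and the mice had free access to food. Of 24 clock genes and outputs 0 were higher and 3 lower (median -0.29, -0.20 in the libraries numbered 1 and 2 and -0.80 in those numbered 3 and 4; -1.02 in control). The number lower was 1 without after 3, before 3 or before 4 and 5 without after 2. Arntl, the core activator, had 8.45, 17.4, 17.5 and 12.5 CPM before and 13.4, 2.46, 25.97 and 12.5 CPM after resection and was not called (log2 fold change -0.04 ± 0.54, adjusted p 0.972). Nr1d1, the repressor REV-ERB alpha, had 105, 92.4, 118 and 119 CPM before and 52.9, 20.01, 37.8 and 68.1 CPM after resection (log2 fold change -1.28 ± 0.34, adjusted p 0.0247). After 2 was the lowest library for both of these genes, and Nr1d1 was not called without after 3, before 3 or before 4 (adjusted p 0.0596 to 0.0689), nor with the number as a block (adjusted p 0.0503). Rgs16, a rhythmic regulator of G proteins that also responds to feeding (ENSMUSG00000026475.7, chromosome 1, 153740349 to 153745468, plus strand), had 25.8, 38.1, 127 and 227 CPM before and 0.458, 5.58, 13.3 and 10.03 CPM after resection (log2 fold change -3.84 ± 0.87, adjusted p 0.0124). Bhlhe40 was the other lower member. The part of the time of day and of feeding in these changes was not tested.

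Of 27 genes of the unfolded protein and heat shock responses 1 fell, Herpud1, which clears misfolded proteins from the endoplasmic reticulum (398, 557, 886 and 578 CPM before and 210.5, 263, 226 and 225 CPM after resection; log2 fold change -1.39 ± 0.23, adjusted p 0.00132). Hspa5, the chaperone BiP, was not called (924, 1178, 1874 and 1358 CPM before and 1896, 475, 1234 and 1041 CPM after resection; log2 fold change -0.20 ± 0.39, adjusted p 0.783), and its libraries spread more widely after than before resection. With the number as a block 6 were lower. Of 21 hypoxia genes 1 was higher and 4 lower, with a median of -0.10 that was no longer negative under total-count scaling. The lower ones were 2 without after 3, before 3 or before 4. Of 20 genes of iron handling and metallothioneins 4 were higher (Slc40a1, Hpx, Hp and Lcn2) and 2 lower (Bmp6 and Smad7), with the count of lower genes at 1 without after 1, after 2, after 3, after 4, before 2 or before 4. Srgap3, a regulator of the cytoskeleton taken by its fold, fell without overlap (5.46, 7.503, 4.35 and 4.71 CPM before and 0.732, 0.6699, 0.671 and 1.49 CPM after resection; log2 fold change -2.63 ± 0.38, adjusted p 0.000583).

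Of 30 cytoplasmic ribosomal proteins 10 were called higher and 0 lower, with a median of 0.23 (0.18 in the libraries numbered 1 and 2 and 0.27 in those numbered 3 and 4; -0.06 in control). The count was 2 without before 2, 3 without after 3, 4 without after 4, before 3 or before 4 and 5 without after 2, and 2 when only the 8 HIRA KO libraries were fitted. Rplp1, of the ribosomal stalk, had 193, 137, 155 and 158 CPM before and 225, 254, 300.2 and 296 CPM after resection (log2 fold change 0.74 ± 0.14, adjusted p 0.00238; 0.28 in control) and Rpl32 129, 96.2, 105 and 102 CPM before and 159.6, 186, 174 and 164 CPM after resection (log2 fold change 0.66 ± 0.13, adjusted p 0.00453; 0.04 in control). Pseudogene copies of ribosomal proteins may share their reads. Ribosome biogenesis had 5 higher and 1 lower call of 26 (median 0.15), and the count of higher genes was 2 without after 3 or before 4 and 3 without after 2, before 1, before 2 or before 3. Nuclear genes of oxidative phosphorylation had 0 higher and 2 lower calls of 30 and a median of -0.08 that turned to 0.03 under total-count scaling. The count of lower genes was 0 without after 1, after 2, after 3, before 2, before 3 or before 4 and 1 without before 1.

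Transcripts of the mitochondrial genome went in opposite directions. Of 13 genes 5 rose and 3 fell (median -0.26, 0.04 in the libraries numbered 1 and 2 and -0.51 in those numbered 3 and 4). The number that fell was 1 without after 3, before 2 or before 4. mt-Co1, a catalytic subunit of cytochrome c oxidase (ENSMUSG00000064351.1, chromosome M, 5328 to 6872, plus strand), had 23021, 27372, 28524 and 30202 CPM before and 16017, 19382, 15702 and 14526 CPM after resection (log2 fold change -0.73 ± 0.16, adjusted p 0.00624) and mt-Nd5, of complex I, fell from 5334 ± 611 to 3021 ± 1092 CPM (log2 fold change -0.82 ± 0.22, adjusted p 0.0203, not called without after 3, before 2 or before 4, at adjusted p 0.0509 to 0.0641). mt-Co3, another subunit of the oxidase (ENSMUSG00000064358.1, chromosome M, 8607 to 9390, plus strand), had 36.5, 28.4, 44.01 and 41.3 CPM before and 96.1, 127, 113 and 151 CPM after resection (log2 fold change 1.69 ± 0.28, adjusted p 0.00148). The groups were far apart, but the level of mt-Co3 in CPM was a small part of that of mt-Co1. mt-Co2 rose from 43.96 ± 4.79 to 133 ± 31.8 CPM (log2 fold change 1.60 ± 0.30, adjusted p 0.00312), mt-Atp6, of the ATP synthase, from 27.7 ± 3.55 to 76.6 ± 18.3 CPM (log2 fold change 1.47 ± 0.31, adjusted p 0.00663) and mt-Nd3, of complex I, from 3.06 ± 0.722 to 10.99 ± 3.09 CPM (log2 fold change 1.84 ± 0.30, adjusted p 0.00109). mt-Atp8 was the fifth that rose and mt-Nd2 the third that fell. Nuclear copies of mitochondrial sequence can take reads from these genes, so the levels of the low ones are uncertain.

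In control the same 4 low transcripts had negative log2 fold changes, but none was called (edgeR adjusted p 0.17 to 0.348). The control library numbered 2 was higher after than before for each of them. The log2 fold change in control was -0.61 ± 0.27 for mt-Co3, -0.47 ± 0.29 for mt-Co2, -0.66 ± 0.30 for mt-Atp6 and -0.54 ± 0.28 for mt-Nd3. Control libraries held 125, 48.9, 116 and 151 CPM of mt-Co3 before and 71.97, 80.8, 51.2 and 85.4 CPM after. All 4 HIRA KO libraries before were lower than the lowest control library before, which stood apart from the other 3 controls. The difference between the genotypes was 2.30 on the log2 scale for mt-Co3 and 2.38 for mt-Nd3 with an adjusted p of 0.137 for each, and 2.06 for mt-Co2 and 2.13 for mt-Atp6 with an adjusted p of 0.226, so that none was called. mt-Tc, a transfer RNA of low level, had 1.89, 1.73, 2.04 and 2.51 CPM before and 2.79, 5.18, 2.92 and 6.17 CPM after resection in HIRA KO (log2 fold change 1.06 ± 0.29, adjusted p 0.024, not called without after 2, after 4, before 2 or before 3, at adjusted p 0.0568 to 0.07) and a log2 fold change of -1.38 in control, and the difference of 2.44 had an adjusted p of 0.137.

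**Figure D4:**
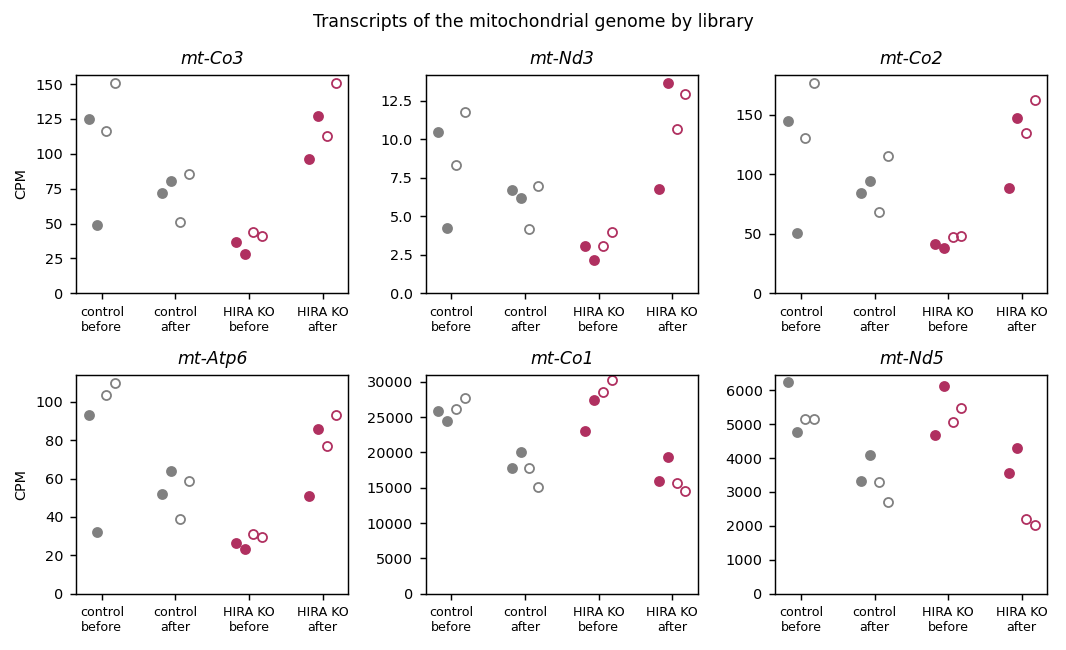
Level of 6 transcripts of the mitochondrial genome in each of the 16 libraries, in CPM on linear axes from 0, by genotype and time; grey is control, red is HIRA KO, filled points are the libraries numbered 1 and 2 and open points those numbered 3 and 4. mt-Co3, mt-Nd3, mt-Co2 and mt-Atp6 were higher after than before in HIRA KO, while mt-Co1 and mt-Nd5 had lower means after resection in both genotypes.

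Several chaperones that place H3 during DNA replication rose. Of 20 genes for H3.3, the HIRA complex and H3 chaperones and partners 6 rose and 1 fell (median 0.18; 0.09 in control). Chaf1b, a subunit of the CAF-1 complex that deposits H3 during DNA replication (ENSMUSG00000022945.12, chromosome 16, 93883901 to 93906115, plus strand), had 1.47, 1.46, 0.815 and 0.754 CPM before and 3.89, 6.57, 4.599 and 3.19 CPM after resection (log2 fold change 2.01 ± 0.34, adjusted p 0.00143). Chaf1a, its largest subunit, had 2.26, 2.39, 1.83 and 2.26 CPM before and 4.26, 6.25, 8.14 and 7.33 CPM after resection (log2 fold change 1.57 ± 0.32, adjusted p 0.00477). Asf1b, the form of ASF1 found in dividing cells, had 0.735, 0.7304, 1.36 and 0.691 CPM before and 2.56, 2.77, 5.08 and 3.14 CPM after resection (log2 fold change 1.95 ± 0.45, adjusted p 0.00933), and Mcm2, a helicase subunit that also holds H3 and H4, rose from 4.39 ± 0.923 to 16.02 ± 5.67 CPM (log2 fold change 1.86 ± 0.32, adjusted p 0.00187). These 4 kept their calls in all 8 fits that left out 1 library, while Asf1b was not called in the libraries numbered 1 and 2 alone. Daxx, which deposits H3.3 in heterochromatin, and Asf1a were the other higher members, and Ubn1, a subunit of the HIRA complex, was the lower one.

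The H3.3 genes were not called. H3f3a (ENSMUSG00000060743.12, chromosome 1, 180800832 to 180813943, minus strand) had 102, 106, 78.3 and 89.3 CPM before and 108, 131, 84.1 and 80.9 CPM after resection (log2 fold change 0.10 ± 0.14, adjusted p 0.67) and H3f3b (ENSMUSG00000016559.14, chromosome 11, 116021912 to 116027962, minus strand) 205, 276, 167 and 185 CPM before and 281, 282, 234 and 189 CPM after resection (log2 fold change 0.25 ± 0.16, adjusted p 0.334). Processed copies of both genes elsewhere in the genome share sequence with them. Of 22 measured replication-dependent histone genes 0 were called, with a median of 0.69. Their summed level was 16.3, 12.7, 8.83 and 11.8 CPM before and 36.4, 17.3, 15.04 and 7.99 CPM after resection. Most of these transcripts carry no poly-A tail, and the libraries were made from poly-A RNA. DESeq2 on all 16 libraries called 1 of them, and edgeR with the number as a block 2.

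**Figure D5:**
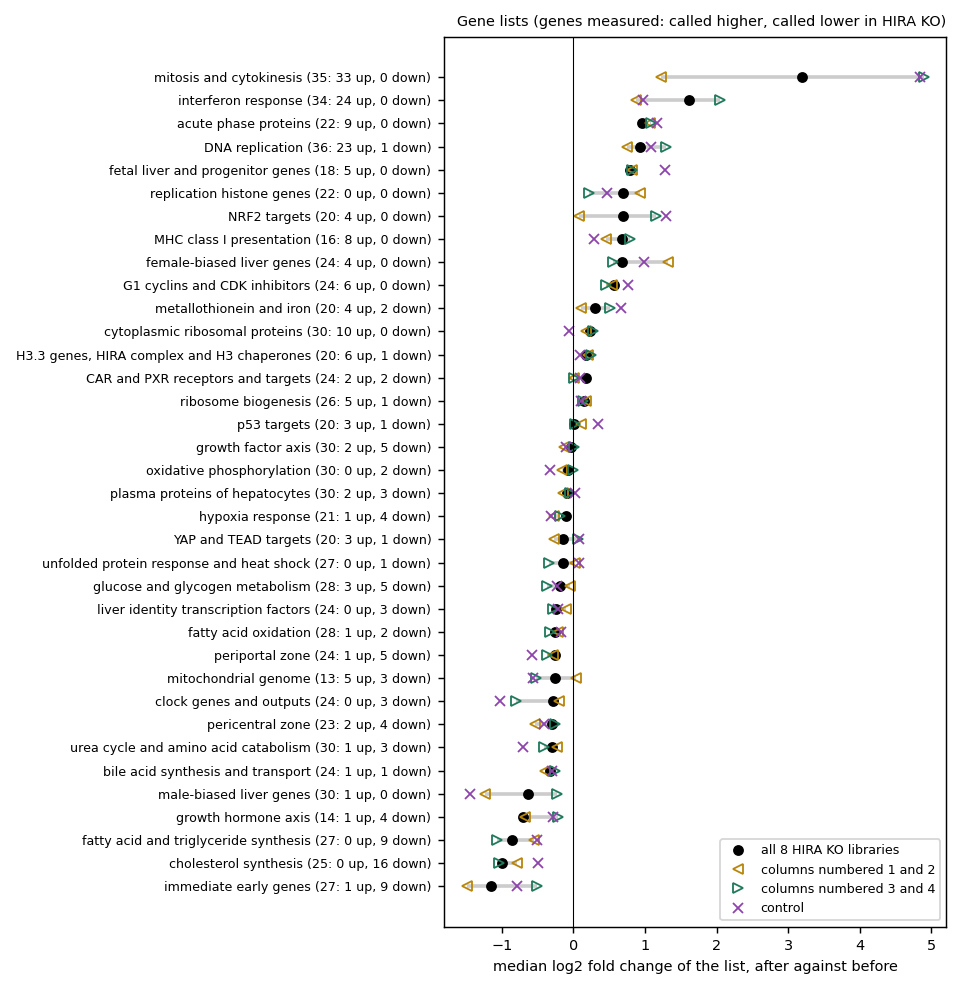
Median log2 fold change after against before resection of each of the 36 gene lists on function, over all 8 HIRA KO libraries (black), the libraries numbered 1 and 2 or 3 and 4 alone (triangles) and the control libraries (crosses); grey bars join the 2 sets of HIRA KO libraries and the numbers beside each name are the measured, higher and lower genes. Mitosis and cytokinesis lay highest at 3.20, and the sets of libraries were furthest apart in that list, at 1.22 and 4.89.

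Whether the change differed from that in control was tested in the same fit. The edgeR test of the difference called 0 of 20922 genes (0%), with 1470 at an unadjusted p under 0.05 and a smallest adjusted p of 0.137. DESeq2 on all 16 libraries called 68, of which 48 had a higher and 20 a lower change in HIRA KO. For the mitotic genes the level before resection was above that of control in before 1 and before 2. Mki67 had 0.804, 1.301, 2.23 and 0.9802 CPM before and 11.7, 37.4, 71.9 and 78.8 CPM after in control, so that its change was 5.24 in control against 3.25 in HIRA KO (difference -1.98, adjusted p 0.743).

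The 5 genes with the smallest p of the difference were mt-Tc, mt-Co3 and mt-Nd3, described above, Mtmr11 and Tmem256. Mtmr11, a phosphatase-like protein of the myotubularin family (ENSMUSG00000045934.15, chromosome 3, 96162004 to 96171718, plus strand), had 13.8, 17.1, 12.6 and 7.41 CPM before and 18.7, 14.6, 15.1 and 11.3 CPM after resection in HIRA KO, and 2.51, 2.49, 2.63 and 0.865 CPM before and 10.9, 11.9, 13.7 and 11.2 CPM after in control. In control it rose into the range that HIRA KO held at both times (0.23 in HIRA KO, 2.48 in control, adjusted p of the difference 0.137). Tmem256, a small membrane protein, had 41.9, 33.5, 36.1 and 40.1 CPM before and 39.4, 53.1, 42.2 and 44.95 CPM after resection in HIRA KO, and 52.1, 50.7, 48.8 and 53.05 CPM before and 39.4, 31.5, 31.4 and 31.5 CPM after in control (difference 0.86, adjusted p 0.149). Neither passed the threshold over all genes.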

How the data were processed

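Liver RNA was sequenced in 16 libraries, 4 in each of 4 groups taken from the sample labels. The deposited table holds raw counts per gene. Per the study's methods the authors trimmed reads with Trim Galore, aligned them to mm10 with STAR and counted genes with HOMER, while the submitters' processing notes name HTSeq and Cufflinks, so the counting tool is uncertain. The annotation release is not given in the sources used here, and 54673 of 55421 gene IDs equal those of GENCODE M21, whose GRCm38 coordinates are printed. The FPKM table was not used. Total counts, 15103059 to 21738619 per HIRA KO library, set the precision of low genes.

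Genes with 10 or more counts in total over the 8 HIRA KO libraries were fitted with edgeR 4.0.16 (limma 3.58.1, R 4.3.3), using TMM factors, 4 group means over all 16 libraries, robust quasi-likelihood estimation and Benjamini-Hochberg adjustment over all genes tested (threshold 0.05). Levels are counts per 1000000 of the TMM-scaled library size (CPM), means are ± SD (n = 4), and the error of a log2 fold change is its size divided by the square root of F, an approximation. CPM is not corrected for transcript length, so levels of different genes are not compared as molecules. The alternatives were DESeq2 1.42.0, other scalings, filters and samples, and each library left out. The script was tested on simulated data. The rule for genes given with values took the called genes of largest fold and of largest difference in CPM without overlap, up to 4 members of each list by fold, the 5 genes with the smallest p of the difference from control and 14 fixed genes, and part of them are given. The members and lists were chosen with earlier results of these data known.

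Replicate pairs of one group differed by more than sampling noise (chi-square per degree of freedom 12.4 to 134.5). Per the study's methods the resected and the remaining liver came from the same mice, but neither labels nor columns tie libraries to mice. The reported fit therefore leaves this pairing out. Its p-values rest on the spread within groups over all 16 libraries, control included, and not on that of the HIRA KO libraries alone. When only the 8 HIRA KO libraries were fitted, 1431 genes were called. Deviations of same-numbered HIRA KO libraries before and after correlated at 0.586, 0.385, 0.465 and 0.579. The block by number treats these libraries as pairs, which no label gives. Before 3 correlated more with after 4 (0.516) than with after 3 (0.465). Numbers 1 with 2 and 3 with 4 also correlated (0.312 to 0.516), so a shared mouse and a shared set of libraries cannot be told apart. Promoter windows came from RefSeq (GRCm38.p6), whose starts can differ from the printed GENCODE coordinates. Results of some genes are not reported here.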

Additional observations from a re-analysis of the deposited data

Results flagged for a closer look

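For each of the 125 genes given with values, the 4 HIRA KO libraries of a time were searched for a single library far from the other 3, which gave 23 flags in 250 groups, and chance alone flags about 1 in 20 groups. The groups share libraries and the genes are not independent.

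After resection, library 3 held 42.73 CPM of Ccnb1, 49.68 of Ube2c, 40.34 of Hmmr, 13.56 of Dlgap5, 29.56 of Birc5 and 19.98 of Cdkn2c, the highest value each time. In the same group library 2 was the highest for Nr4a1 with 10.76 CPM, Fos with 9.155, Fosb with 2.724 and Ccn2 with 8.217, and the lowest for Orm1 with 1269 CPM. Library 1 was the highest for Cyp7a1 with 51.08 CPM and the lowest for Osgin1 with 664.4. Library 4 was the highest for Srgap3 with 1.487 CPM and for Hira with 4.517. Library 1 held 0.04577 CPM of Olfm4, which was 1 count, and the other 3 held 0.

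Before resection, library 1 held the highest level of Olfm4, 24.2 CPM, and of Birc5, 2.467 CPM. Library 2 was the highest for Tnfrsf12a with 13.55 CPM and library 3 for Asf1b with 1.358. Library 4 was the highest for Cdh5 with 29.4 CPM and the lowest for Cyp2a4 with 1.885 CPM and for Cyp3a41a with 0.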

How the results depend on the processing

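The change after resection called 2899 genes, and the count was 1608 in the libraries numbered 1 and 2 alone, 1431 when only the 8 HIRA KO libraries were fitted and 1744 to 2934 when 1 library was left out. The lowest of these was without HIRA KO before 4, and 1841 were called without before 3. With an absolute log2 fold change over 1 the 1260 genes became 755, 742 and 852 to 1372 in these fits. The other settings moved both counts by less than 1.5 times, and no gene called in both the reported fit and another changed direction.

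With the column number as a replicate block, 4166 genes were called, and 7 of the 111 called genes given with values lost the call, namely Ccnb1, Cdc20, Hmmr, Thrsp, Srxn1, Gstm3 and Nr1d1, while Slc10a1 and Mup3 gained one among those not called. The block called 3 genes for the difference from control, against 0 without it. This difference called 68 genes in DESeq2 on all 16 libraries, 33 in the libraries numbered 1 and 2, 1 in those numbered 3 and 4, and 0 to 7 when 1 library was left out, the 7 being without control before 2. The cause of these changes was not tested.

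Over 11 other settings 41 of the 111 called genes kept the call in all, and 76 did so in the 8 fits without 1 HIRA KO library. The libraries numbered 1 and 2 lost 45 and those numbered 3 and 4 lost 29, each with fewer samples. Among these called genes Cux2 was the single one to change sign, at -0.0589 in the libraries numbered 3 and 4. Of 49 list medians 35 kept their sign in all settings. Genes of few counts, such as Chil3 with 8 and Cyp3a41a with 7 counts over 4 libraries before, limit the precision of large folds, and no library separates lobe, collection and time.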

Other observations

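The before 1 library of HIRA KO held some transcripts of epithelial cells that were at or near 0 in the other HIRA KO libraries. These genes were chosen after their values were seen. Dmbt1, a secreted mucosal protein, had 957.9 CPM in before 1 and 0 in the other 3 libraries before, and 1 count over the 4 libraries after. In edgeR it was not called (log2 fold change -13.64, adjusted p 0.0579), and all its counts before, 18250, came from 1 library. Slc9a3, a sodium and proton exchanger of epithelial surfaces, had 6.77 CPM in before 1 and 0 in the other 7 HIRA KO libraries. Olfm4, a protein of intestinal crypts, had 24.2 CPM in before 1 and at most 0.0679 elsewhere. It was called over all 8 libraries at an adjusted p of 0.0233, and without before 1 the adjusted p was 0.295. The call was also lost without any 1 of the 4 libraries after, at adjusted p of 0.053 or more. Of the 10 gut markers 4, namely Cdx2, Alpi, Reg3b and Sis, were at 0 in all 8 libraries. The measured gut markers summed to 80.99, 56.4, 86.4 and 74.4 CPM before, so that before 1 was not the highest. The cholangiocyte markers had their highest sum, 267 CPM, in before 1. The tissue from which these transcripts came was not tested.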
